A study of Mus musculus with 18 samples.

Results

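Laminins, integrins and their close partners were followed through 5 stages of mouse heart development as 32 genes, chosen by symbol from 49315 gene identifiers counted in each library. The 32 comprise 5 laminin alpha chains, 3 beta chains and 2 gamma chains, the 2 nidogens, perlecan (Hspg2), 12 integrin alpha subunits, 6 integrin beta subunits and Itgb1bp2, which encodes melusin, a muscle protein that binds the tail of integrin beta 1. RNA came from dissected hearts of wild-type C57BL/6 embryos, an inbred strain, with each library a pool of both sexes. Stages are named by embryonic day: E9.5 and E14.5 have 3 libraries each, and E10.5, E12.5 and E16.5 have 4 each, with no treatment and no other genotype. The series as a whole concerns cardiac development, and the 4 steps between neighbouring stages and the span from E9.5 to E16.5 ask which of these subunits changed in abundance and when.

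Laminins are cross-shaped trimers of an alpha, a beta and a gamma chain that polymerise on the cell surface and form the base layer of a basement membrane. Nidogens and perlecan tie that layer to the collagen IV network and to growth factors. Integrins are receptors made of an alpha and a beta subunit, which together decide whether a cell holds on to laminin, collagen or proteins with the sequence RGD such as fibronectin, and which pass tension between matrix and cytoskeleton. In the heart, laminin surrounds each muscle cell and lies beneath the endothelium and the epicardium, and integrin beta 1 with its alpha partners anchors muscle cells to it.

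Library totals ran from 30744015 to 45646538 counts, so that a count of 0 allowed a level of up to 0.0657 to 0.0976 CPM (counts scaled to a fixed library total), which covers counting error only. CPM below were scaled by the trimmed mean of M-values (TMM), so they compare 1 gene between libraries, and levels of different genes are compared only per kilobase of exon. The summed level of 6 cardiomyocyte markers was 23623 to 27588 CPM at E9.5 and 30889.6 to 36445 CPM at E16.5, with none of the 6 at 0. No label ties the libraries within a stage to separate litters. The p-values therefore reflect only how far these particular libraries vary, and that variation may be technical. The libraries fell into sets that the stages do not explain. Summed over 8 macrophage-type transcripts, before TMM scaling, 5 libraries (E9.5 replicates 2 and 3, E10.5 replicates 1 and 2, E12.5 replicate 4) held 0.582 to 2.75 CPM and are called set A here, while the other 13 held 340.8 to 689 CPM and are called set B. E9.5 has a single library in set B, E12.5 has a single library in set A, and the last 2 stages have none in set A. Within-set values therefore rest on few libraries. Comparisons of stages that differ in set, such as the whole span, can carry a difference between the sets.

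Of the 32 genes, 31 had enough counts to be tested, and Itgb6, an epithelial partner of alpha v, did not. From E9.5 to E16.5, 18 of the 31 rose, 5 fell and 8 did not pass the edgeR test, next to 64.9% of 18885 genes that passed, 32.1% higher and 32.8% lower. In the same span 13 members changed at least 2-fold, 9 of them upward and 4 downward, next to 28.9% of all genes. By step, 15 rose and 1 fell between E9.5 and E10.5, where 18.2% of all genes passed (10.6% higher, 7.62% lower). Between E10.5 and E12.5, 8 rose and 8 fell, next to 38.0% (20.0% higher, 18.1% lower). Between E12.5 and E14.5, 4 rose and 5 fell, next to 14.8% (6.29% higher, 8.56% lower). Between E14.5 and E16.5, 3 rose and 6 fell, next to 18.9% (10.1% higher, 8.74% lower). In that last step 4 of 32 members passed without E14.5 replicate 1, next to 2058 of 19288 genes. Without E14.5 replicate 2, 5 of 32 passed, next to 2225 of 19269 genes. Scaling by library totals only gave 4 rises and 3 falls at E14.5, where 62.5% of the calls over all genes were higher (42.3% with TMM). Leaving out mitochondrial and globin genes gave 9 and 5 at E12.5, where 54.2% of the calls over all genes were higher (52.5% with those genes). In the fit of all libraries, members thus passed in 51.6%, 51.6%, 29.0% and 29.0% of tests in the 4 steps, above the share of all genes in each. The first step was the one with most rises. For the whole span the share was 74.2%, near that of all genes. The members were chosen with earlier results of these data known, and all genes were not matched to them in level. The shares set side by side are therefore a description only. The median log2 fold change of the members was 0.33, 0.077, -0.077, 0.035 and 0.40 for the 4 steps and the whole span, while the median over all genes lay between -0.02 and 0.01. In a test of any difference among the 5 stages, 27 of the 31 passed (87.1%, next to 71.7% of all genes), and Lama5, Lamc1, Itga9 and Itgb7 did not. Only Itga4 and Itga6, among the 31, passed in all 4 steps, while 8 members rose in 1 step and fell in another. Both counts include calls near the threshold. The first step of Itga6 (edgeR adjusted p = 0.0436) was lost in 14 of 29 alternative fits. The falls of Itga3, Itga7 and Itgb1bp2 at E12.5 (edgeR adjusted p from 0.0467 to 0.0495) were each lost in 16 or 17 of 29. In bulk hearts a change in the share of cells of a type and a change in RNA per cell cannot be told apart.

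**Figure D1:**
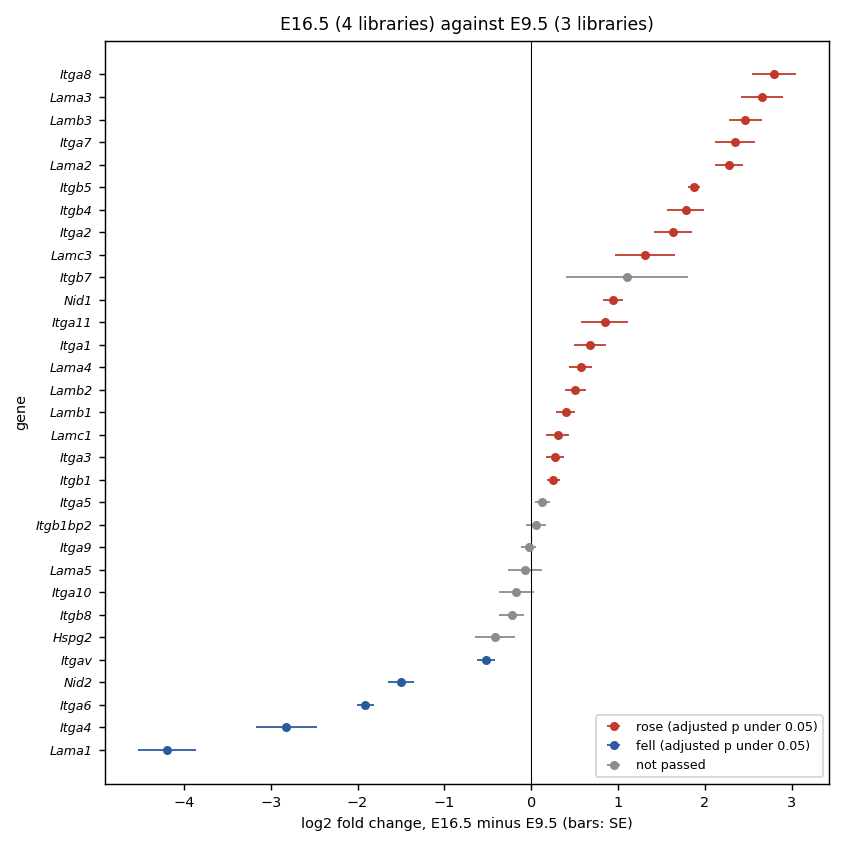
Log2 fold change from E9.5 (3 libraries) to E16.5 (4 libraries) for the 31 tested genes, with bars of 1 SE; red and blue points passed the edgeR test at an adjusted p under 0.05 and grey points did not. Itga8, Lama3 and Lamb3 lie at the top at 2.80, 2.66 and 2.47, and Itga4 and Lama1 at the bottom at -2.82 and -4.19.

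Among the laminin alpha chains, which carry the receptor-binding domains of the trimer, Lama1 fell and Lama2, Lama3 and Lama4 rose from E9.5 to E16.5. Lama1 (ENSMUSG00000032796, chr17:67697259-67822647) encodes the alpha 1 chain of the early embryo's basement membranes. Lama1 measured 9.15, 16.6 and 18.2 CPM in the E9.5 libraries and 17.9, 19.5, 16.8 and 15.3 CPM at E10.5. At the later stages it was 4.74, 5.76, 4.11 and 6.13 CPM (E12.5), 3.79, 1.74 and 1.09 CPM (E14.5) and 0.800, 0.893, 0.617 and 0.879 CPM (E16.5). The E16.5 libraries all lay below every earlier library, and E9.5 replicate 1, the set B library of that stage, was lower than the other E9.5 libraries. The level went from 14.7 ± 4.85 CPM (SD, n = 3) to 0.797 ± 0.127 CPM (SD, n = 4), a log2 fold change of -4.19 ± 0.34 (SE; edgeR adjusted p = 7.86e-09). Within set B, with its single E9.5 library, the span was -3.51. The fall was spread over the last 3 steps, at -1.75 ± 0.27, -1.21 ± 0.31 and -1.48 ± 0.35 on the log2 scale. The step to E14.5 (edgeR adjusted p = 0.0143) no longer passed at -1.06 without E14.5 replicate 2 and -0.91 without E14.5 replicate 3 (edgeR adjusted p from 0.0607 to 0.0783), nor with only the stages compared in the fit (-1.20, edgeR adjusted p = 0.0675). The step to E16.5 (edgeR adjusted p = 0.00659) no longer passed at -0.85 without E14.5 replicate 1 (edgeR adjusted p = 0.0657).

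Lama2 (ENSMUSG00000019899, chr10:26980036-27619758) encodes alpha 2, the chain of the laminin around adult muscle fibres, whose loss causes a muscular dystrophy. Lama2 stood at 9.66, 10.9 and 9.30 CPM in the E9.5 libraries and 16.2, 17.8, 14.9 and 16.3 CPM at E10.5. The E12.5 libraries gave 27.3, 40.0, 26.0 and 38.1 CPM, those of E14.5 44.9, 46.0 and 32.9 CPM and those of E16.5 46.6, 55.8, 49.2 and 41.3 CPM. No E9.5 library reached the lowest E10.5 library and no E10.5 library reached the lowest E12.5 library, whereas E14.5 overlapped both E12.5 and E16.5, and E16.5 lay above E12.5. The log2 fold change was 0.71 ± 0.16 (SE; edgeR adjusted p = 0.00351) at E10.5 against E9.5 and 1.01 ± 0.14 (SE; edgeR adjusted p = 1.67e-05) at E12.5 against E10.5, and 2.27 ± 0.16 (SE; edgeR adjusted p = 5.82e-10) over the whole span. Within set A the first 2 steps were 0.77 and 1.16, and within set B 0.70 (edgeR adjusted p = 0.189) and 0.99. Lama3 (ENSMUSG00000024421), the alpha chain of the laminin under stratified epithelia, also rose early, at low counts. Lama3 was counted at 0.634, 1.04 and 1.23 CPM in the E9.5 libraries and 2.89, 2.93, 1.75 and 2.33 CPM at E10.5. Later libraries held 3.67, 5.65, 3.88 and 4.94 CPM at E12.5, 5.24, 7.0 and 5.57 CPM at E14.5 and 5.41, 6.43, 5.89 and 6.71 CPM at E16.5. Its E9.5 libraries lay below all others, and E12.5 was above E10.5 without overlap. Its log2 fold change was 1.36 ± 0.24 (SE; edgeR adjusted p = 4.23e-04) and 0.87 ± 0.20 (SE; edgeR adjusted p = 0.00185) in those steps and 2.66 ± 0.24 (SE; edgeR adjusted p = 1.04e-08) from E9.5 to E16.5.

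The alpha chains with the highest levels per kilobase, Lama4 and Lama5, moved less. Lama4, the chain of endothelial basement membranes, ranged over 151 to 210.3 CPM at E9.5 and 256 to 319 CPM at E16.5 and rose by 0.57 ± 0.13 (SE; edgeR adjusted p = 7.18e-04) on the log2 scale. Within set B, with its single E9.5 library, the span was 0.90. In the first step alone Lama4 had a log2 fold change of 0.33 ± 0.13 (SE; edgeR adjusted p = 0.0819). It passed at 0.40 without E10.5 replicate 3 (edgeR adjusted p = 0.0446), within set A (at 0.39) and within set B (at 0.47), and also with a filter at 10 CPM and with the set as a term. Lama5, the most widespread alpha chain of mature basement membranes, ranged over 59.8 to 113 CPM at E9.5, 94.8 to 136 CPM at E10.5 and 79.0 to 108 CPM at E16.5. It passed in no comparison, with -0.071 ± 0.20 over the whole span (edgeR adjusted p = 0.772). The library sets turned the direction of Lama5. Within set B alone, where E9.5 is the single library at 59.8 CPM, the span was 0.60 (edgeR adjusted p = 0.0297).

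Per kilobase of exon, Lama4 made up 60.4% ± 3.65 (SD, n = 3) of the laminin alpha chain transcripts at E9.5 and 67.0% ± 1.08 (SD, n = 4) at E16.5. Lama1 went from 5.65% ± 0.720 to 0.238% ± 0.0453 of that sum and Lama2 from 2.40% ± 0.588 to 8.45% ± 0.447 (SDs over the same libraries). The order of the 2 per kilobase was thus turned round, with Lama1 above Lama2 at E9.5 and Lama2 above Lama1 at E16.5. In CPM, E9.5 replicate 1 held 9.15 for Lama1 and 9.66 for Lama2, so the order in that library rests on the exon lengths. In the other E9.5 libraries Lama1 was the higher in CPM too. Lama5 held 31.2% and 22.7%, and Lama3 0.338% and 1.64%. Summed per kilobase, the alpha chains stood at 26.3 ± 6.01 (SD, n = 3) CPM per kilobase at E9.5 and 34.9 ± 3.89 (SD, n = 4) at E16.5. These shares describe RNA and were not tested.

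**Figure D2:**
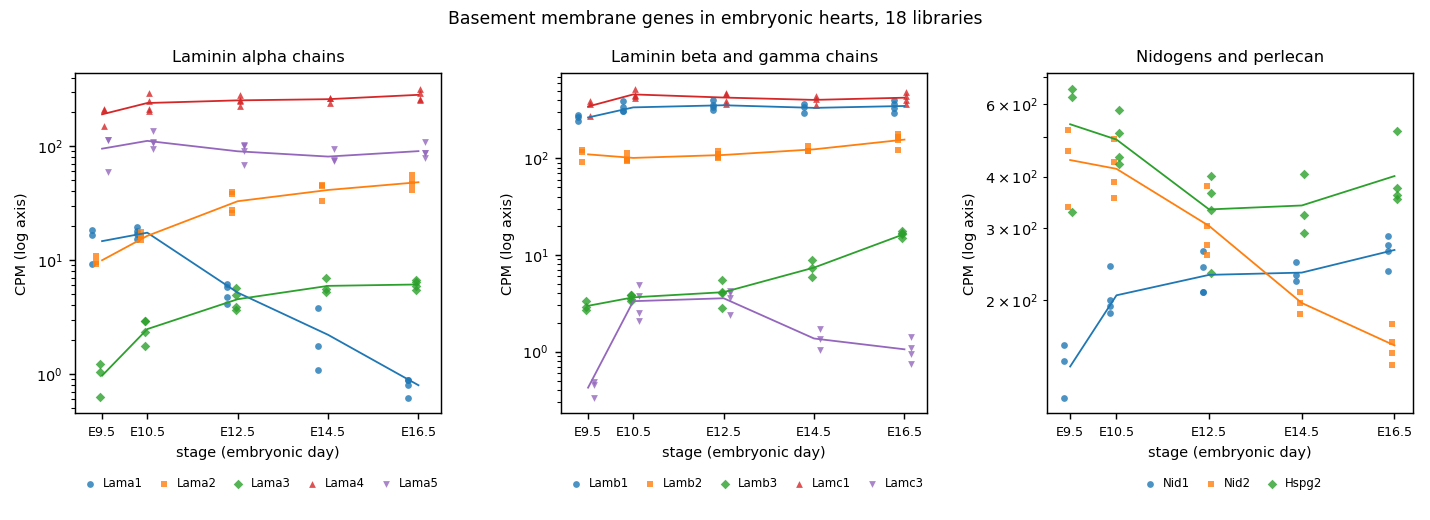
CPM (log axis) of the laminin, nidogen and perlecan genes against embryonic day, 1 point per library, with lines through the stage means. Lama1 falls from a range of 9.15 to 18.2 CPM at E9.5 to a range of 0.617 to 0.893 CPM at E16.5, while Lama2, Lama3 and Lamb3 rise and Lamc3 peaks at E10.5 and E12.5.

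The beta and gamma chains complete the trimer, and beta 1 with gamma 1 is the usual pair of embryonic laminins. Lamb1 (ENSMUSG00000002900, chr12:31265234-31329644) and Lamc1 (ENSMUSG00000026478, chr1:153218922-153332786) held most of the beta and gamma chain RNA. Lamb1 measured 241, 282 and 269.8 CPM in the E9.5 libraries and 337, 388, 311 and 309 CPM at E10.5. By E12.5 Lamb1 was at 358, 343, 313 and 399.7 CPM, by E14.5 at 341, 362 and 294 CPM and by E16.5 at 362, 402, 333 and 291 CPM. Lamc1 gave 272, 389 and 367 CPM in the E9.5 libraries and 449.9, 524, 438 and 418 CPM at E10.5. At the later stages it was 368, 461, 391 and 478 CPM (E12.5), 412, 438 and 354 CPM (E14.5) and 364, 487, 436 and 404 CPM (E16.5). For both genes the E9.5 libraries lay below all E10.5 libraries, and from E10.5 on the stages overlapped. Lamb1 had a log2 fold change of 0.35 ± 0.11 (SE; edgeR adjusted p = 0.0369) in the first step and 0.40 ± 0.11 (SE; edgeR adjusted p = 0.00458) over the span, and Lamc1 of 0.42 ± 0.13 (SE; edgeR adjusted p = 0.0308) and 0.30 ± 0.13 (SE; edgeR adjusted p = 0.0470). These calls were near the threshold. The first step of Lamb1 no longer passed at 0.30 without E9.5 replicate 1, 0.36 without E9.5 replicate 3, 0.35 without E10.5 replicate 1 and 0.27 without E10.5 replicate 2 (edgeR adjusted p from 0.0725 to 0.126), nor within set B (0.37, edgeR adjusted p = 0.183). That of Lamc1 no longer passed at 0.29 without E9.5 replicate 1, 0.47 without E9.5 replicate 3, 0.42 without E10.5 replicate 1 and 0.34 without E10.5 replicate 2 (edgeR adjusted p from 0.0503 to 0.118), nor with only the stages compared in the fit (0.41, edgeR adjusted p = 0.0633). For Lamc1 the call over the span was lost without any 1 of E9.5 replicate 1, E10.5 replicate 1, 3 or 4, E12.5 replicate 2 or 3, E14.5 replicate 1, E16.5 replicate 2 or 3 (0.17 to 0.30, edgeR adjusted p from 0.0501 to 0.245) and when scaled by library totals only or with only the stages compared in the fit (0.26 to 0.30, edgeR adjusted p from 0.0786 to 0.0953). It was 0.64 within set B, and Lamc1 did not pass the test over all stages.

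Lamb3 (ENSMUSG00000026639, chr1:193207699-193343878), the beta partner of alpha 3 in epithelial laminin, rose late. Lamb3 measured 2.87, 3.38 and 2.69 CPM in the E9.5 libraries and 3.31, 3.85, 3.90 and 3.52 CPM at E10.5. The E12.5 libraries gave 4.14, 2.81, 5.49 and 4.04 CPM, those of E14.5 5.90, 7.36 and 8.94 CPM and those of E16.5 16.7, 16.4, 14.9 and 17.9 CPM. Its first 3 stages overlapped, E14.5 lay above all of them, and E16.5 lay above E14.5. The log2 fold change was 0.84 ± 0.17 (SE; edgeR adjusted p = 0.00238) at E14.5 against E12.5, 1.16 ± 0.18 (SE; edgeR adjusted p = 1.24e-04) at E16.5 against E14.5 and 2.47 ± 0.19 (SE; edgeR adjusted p = 8.66e-10) from E9.5 to E16.5. Lama3, the chain it pairs with in epithelia, had risen by E12.5 and had 0.39 ± 0.21 and 0.040 ± 0.21 in the last 2 steps. Lamb2, the beta chain of the adult neuromuscular junction, rose over the span by 0.51 ± 0.12 (SE; edgeR adjusted p = 9.90e-04), from a range of 91.8 to 123 CPM to a range of 122 to 180.3 CPM, and these ranges overlapped. Its last step was 0.33 ± 0.12 (SE; edgeR adjusted p = 0.0555), and it passed at 0.33 without E9.5 replicate 1 and 0.44 without E16.5 replicate 4 (edgeR adjusted p from 0.00821 to 0.0325) and also with RLE factors, with no filter on low counts, with a filter at 10 CPM, by DESeq2, with the set as a term, within set B and without mitochondrial and globin genes. Lamc3, a gamma chain of restricted sites, was listed at 0.332 to 0.487 CPM at E9.5, 2.10 to 4.91 CPM at E10.5, 2.41 to 4.22 CPM at E12.5, 1.03 to 1.73 CPM at E14.5 and 0.736 to 1.43 CPM at E16.5. It rose by 2.96 ± 0.34 (SE; edgeR adjusted p = 5.51e-06) in the first step and fell between E12.5 and E14.5 (-1.38 ± 0.30 SE, edgeR adjusted p = 0.00364). Exons of an antisense gene, Gm13441, cover 6.27% of those of Lamc3, and without a stated strand setting their reads cannot be told apart. Per kilobase, Lamb1 and Lamb2 held 59.1% and 39.9% of beta chain transcripts at E9.5 and 55.5% and 40.5% at E16.5, and Lamc1 held 98.9 to 99.8% of gamma chain transcripts in the 5 stage means.

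The 2 nidogens, rod-shaped linkers between the laminin and collagen IV networks, went opposite ways. Nid1 (ENSMUSG00000005397, chr13:13437551-13512269) rose. Nid1 measured 115, 155 and 142 CPM in the E9.5 libraries and 200.4, 242, 193 and 185 CPM at E10.5. Later libraries held 209, 240.3, 209 and 263 CPM at E12.5, 229.8, 247 and 222 CPM at E14.5 and 264, 287, 273 and 236 CPM at E16.5. Each E9.5 library was below all later ones. Nid2 (ENSMUSG00000021806, chr14:19751265-19811787) fell. Nid2 measured 336, 462 and 519 CPM in the E9.5 libraries and 433, 495, 388 and 355 CPM at E10.5. By E12.5 Nid2 was at 272, 303, 258 and 378 CPM, by E14.5 at 196, 209 and 185 CPM and by E16.5 at 138, 175, 158 and 148 CPM. All E14.5 libraries were below all E12.5 libraries, and all E16.5 libraries below all E14.5 libraries, though that last step did not pass (-0.34 ± 0.15 SE, edgeR adjusted p = 0.114). It did pass when scaled by library totals only, with only the stages compared in the fit and with the set as a term, and at -0.34 (edgeR adjusted p = 0.00599) within set B, which holds every library of both stages. From E9.5 to E16.5 the log2 fold change was 0.94 ± 0.11 (SE; edgeR adjusted p = 4.66e-07) for Nid1 and -1.50 ± 0.15 (SE; edgeR adjusted p = 5.36e-08) for Nid2. Within set B, with its single E9.5 library, the span was 1.20 for Nid1 and -1.11 for Nid2. Nid1 rose in the first step (0.58 ± 0.11 SE, edgeR adjusted p = 0.00110), and Nid2 fell at E12.5 (-0.46 ± 0.14 SE, edgeR adjusted p = 0.0119) and at E14.5 (-0.62 ± 0.15 SE, edgeR adjusted p = 0.00788). Within the sets the first step of Nid1 was 0.60 in set A and 0.72 in set B, and the second step of Nid2 was -0.29 and -0.42. Exons of Rtraf on the opposite strand overlap 8.45% of those of Nid2.

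Hspg2 (ENSMUSG00000028763, chr4:137468769-137570630) encodes perlecan, a heparan sulfate proteoglycan that binds growth factors in the basement membrane. Hspg2 measured 328, 627 and 655 CPM in the E9.5 libraries and 446, 582, 512 and 429.7 CPM at E10.5. At the later stages it was 232, 401, 331 and 365 CPM (E12.5), 291, 406 and 322 CPM (E14.5) and 359.7, 517, 375 and 352 CPM (E16.5). Single libraries stood apart, with E9.5 replicate 1 at 328 CPM against 627 and 655 CPM in the other E9.5 libraries, and E16.5 replicate 2 at 517 CPM. Hspg2 passed in no pairwise comparison but did pass the test over all stages, near the threshold (edgeR adjusted p = 0.0437). Its log2 fold change over the span was -0.42 ± 0.23 (SE; edgeR adjusted p = 0.125), and it passed at -0.67 without E9.5 replicate 1 and -0.57 without E16.5 replicate 2 (edgeR adjusted p from 0.00980 to 0.0490). Without E9.5 replicate 1, the E9.5 libraries are all in set A and the E16.5 libraries all in set B. The stage and set differences cannot be told apart in that fit. Within set B the direction was turned, at 0.29 (edgeR adjusted p = 0.458), where E9.5 is the single library at 328 CPM. Between E10.5 and E12.5 the value was -0.57 ± 0.22 (SE; edgeR adjusted p = 0.0507), and it passed at -0.58 without E9.5 replicate 1, -0.57 without E9.5 replicate 3, -0.67 without E12.5 replicate 2 and -0.57 without E16.5 replicate 2 (edgeR adjusted p from 0.0139 to 0.0497) and also when scaled by library totals only, with a filter at 10 CPM, by DESeq2 and with only the stages compared in the fit.

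Upstream sequence is given for 4 integrin genes whose levels are described next: Itga4 and Itga8, alpha subunits that moved in opposite directions over the span, and Itgb5 and Itgb1, the beta subunits with the highest levels per kilobase. Each is the 250 bases before the RefSeq start of the gene on build GRCm38.p6, written 5′ to 3′ on the strand of the gene. Capitals mark the GC box GGGCGG, bound by Sp1-family factors, and the E-box CAGCTG, bound by basic helix-loop-helix factors, each searched on both strands (the GC box reads CCGCCC on the other strand).
Itga4 (chr2:79255176-79255425, plus strand): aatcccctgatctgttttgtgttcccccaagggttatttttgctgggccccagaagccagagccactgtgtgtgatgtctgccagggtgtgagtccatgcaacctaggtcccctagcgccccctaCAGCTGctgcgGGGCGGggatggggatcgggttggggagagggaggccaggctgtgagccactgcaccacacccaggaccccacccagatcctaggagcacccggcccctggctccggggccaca
Itga8 (chr2:12301945-12302194, minus strand): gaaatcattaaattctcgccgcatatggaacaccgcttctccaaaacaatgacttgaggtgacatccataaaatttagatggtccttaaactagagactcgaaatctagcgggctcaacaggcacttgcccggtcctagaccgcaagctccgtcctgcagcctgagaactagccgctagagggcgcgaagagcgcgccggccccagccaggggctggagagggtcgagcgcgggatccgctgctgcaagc
Itgb5 (chr16:33829415-33829664, plus strand): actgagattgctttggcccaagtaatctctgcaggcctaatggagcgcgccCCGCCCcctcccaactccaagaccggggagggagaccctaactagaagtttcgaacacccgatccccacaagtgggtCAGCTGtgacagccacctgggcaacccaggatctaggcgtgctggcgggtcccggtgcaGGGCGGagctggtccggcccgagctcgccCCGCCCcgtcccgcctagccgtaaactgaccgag
Itgb1 (chr8:128685404-128685653, plus strand): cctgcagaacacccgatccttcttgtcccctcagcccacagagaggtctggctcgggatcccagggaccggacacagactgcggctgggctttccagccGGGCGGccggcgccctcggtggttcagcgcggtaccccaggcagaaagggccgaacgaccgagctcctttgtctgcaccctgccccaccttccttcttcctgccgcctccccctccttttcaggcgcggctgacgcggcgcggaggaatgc
Itgb5 held 3 GC boxes and 1 E-box, Itga4 1 of each, Itgb1 1 GC box and no E-box, and Itga8 neither. No base belonged to both motifs. The GC content was 64.0% for Itga4, 56.4% for Itga8, 65.2% for Itgb5 and 68.0% for Itgb1. RefSeq start windows were found for 22 of the 32 genes, and 10 of their 25 windows, from 9 genes, held a GC box, next to 32.7% of 32841 windows of all genes of the same length. The E-box was in 5 of the 25, next to 13.0% of all. A match describes letters and not a bound site. The genes without a window were Itga6, Itga7, Itgb1bp2, Itgb4, Lama1, Lama3, Lama4, Lamc1, Lamc3 and Nid2.

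The laminin receptors split, with Itga6 falling and Itga7 rising late. Itga6 (ENSMUSG00000027111, chr2:71745616-71858416) encodes alpha 6, the laminin receptor of early hearts, epithelia and endothelium. Itga6 measured 488, 559 and 640.2 CPM in the E9.5 libraries and 468, 481, 444 and 441 CPM at E10.5. The E12.5 libraries gave 259.8, 288, 255 and 315 CPM, those of E14.5 247, 218 and 194 CPM and those of E16.5 136, 148, 163 and 151 CPM. The 3 E9.5 libraries were all above the E10.5 libraries, and each later stage lay wholly below the stage before it. From 563 ± 75.9 CPM (SD, n = 3) the level came to 149 ± 11.1 CPM (SD, n = 4), a log2 fold change of -1.91 ± 0.10 (SE; edgeR adjusted p = 3.06e-12). The steps were -0.30 ± 0.099, -0.71 ± 0.092, -0.35 ± 0.10 and -0.55 ± 0.099. The first was near the threshold (edgeR adjusted p = 0.0436) and was lost without any 1 of E9.5 replicate 2 or 3, E10.5 replicate 1, 2, 3 or 4, E12.5 replicate 2, E14.5 replicate 2, E16.5 replicate 2 (-0.19 to -0.32, edgeR adjusted p from 0.0525 to 0.268). It was also lost when scaled by library totals only, with no filter on low counts or with only the stages compared in the fit (-0.26 to -0.30, edgeR adjusted p from 0.0562 to 0.0783), and within set B it was -0.14 (edgeR adjusted p = 0.611). For the step to E14.5 (edgeR adjusted p = 0.0227) the values that no longer passed were -0.33 without E12.5 replicate 2, -0.29 without E12.5 replicate 4, -0.34 without E14.5 replicate 2 and -0.27 without E14.5 replicate 3 (edgeR adjusted p from 0.0539 to 0.142), and it was lost when scaled by library totals only (-0.28, edgeR adjusted p = 0.0757).

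Itga7 (ENSMUSG00000025348, chr10:128933818-128958282) encodes alpha 7, the main laminin receptor of mature skeletal and heart muscle. Itga7 measured 4.35, 3.60 and 4.78 CPM in the E9.5 libraries and 2.76, 2.77, 3.92 and 2.86 CPM at E10.5. Later libraries held 2.93, 1.65, 1.48 and 2.40 CPM at E12.5, 4.67, 6.53 and 7.91 CPM at E14.5 and 21.6, 24.7, 17.6 and 22.6 CPM at E16.5. The 4 E16.5 libraries lay above the E14.5 libraries, which lay above all E12.5 libraries. Its log2 fold change was 1.59 ± 0.22 (SE; edgeR adjusted p = 5.32e-05) at E14.5 against E12.5, 1.77 ± 0.22 (SE; edgeR adjusted p = 1.52e-05) at E16.5 against E14.5 and 2.35 ± 0.23 (SE; edgeR adjusted p = 2.50e-08) from E9.5 to E16.5. Before that Itga7 had fallen between E10.5 and E12.5 (-0.54 ± 0.21 SE, edgeR adjusted p = 0.0467), a call that was lost without any 1 of E10.5 replicate 1, 2, 3 or 4, E12.5 replicate 2 or 3, E14.5 replicate 2, E16.5 replicate 1, 2 or 4 (-0.40 to -0.59, edgeR adjusted p from 0.0504 to 0.157), at -0.20 (edgeR adjusted p = 0.578) within set A and -0.76 (edgeR adjusted p = 0.0713) within set B, and with no filter on low counts, with a filter at 10 CPM, with only the stages compared in the fit or without mitochondrial and globin genes (-0.51 to -0.53, edgeR adjusted p from 0.0508 to 0.0885). In the last step 4 of 6 cardiomyocyte markers rose too, their sum going from a range of 21470.1 to 23864 CPM to a range of 30889.6 to 36445 CPM, with none at 0. In the step before, where Itga7 also rose, 1 of the 6 markers rose and the E14.5 sum overlapped that of E12.5 (20878 to 22807 CPM). The part of these markers in the rise of Itga7 was not tested. Itga3, the alpha 3 laminin receptor of epithelia, ranged over 27.6 to 34.7 CPM at E9.5 and 33.9 to 41.0 CPM at E16.5, with a rise of 0.62 ± 0.10 (SE; edgeR adjusted p = 3.11e-04) in the first step. Between E10.5 and E12.5 Itga3 fell (-0.24 ± 0.095 SE, edgeR adjusted p = 0.0485), a call lost in 16 of 29 alternative fits. In that step Itga3 had -0.16 within set A and -0.19 within set B. Its span value was 0.27 ± 0.10 (SE; edgeR adjusted p = 0.0280), and it no longer passed at 0.20 without E9.5 replicate 1, 0.27 without E9.5 replicate 3 and 0.23 without E16.5 replicate 2 (edgeR adjusted p from 0.0615 to 0.125), nor when scaled by library totals only (0.23, edgeR adjusted p = 0.0601). Per kilobase, Itga6 held 48.8% ± 2.31 (SD, n = 3) of integrin alpha transcripts at E9.5 and 18.9% ± 1.74 (SD, n = 4) at E16.5, and Itga7 0.414% ± 0.0686 and 3.04% ± 0.355 over the same libraries. Even at E16.5 the Itga6 level per kilobase, 16.6 ± 1.23 CPM per kilobase, was above that of Itga7, 2.67 ± 0.369.

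**Figure D3:**
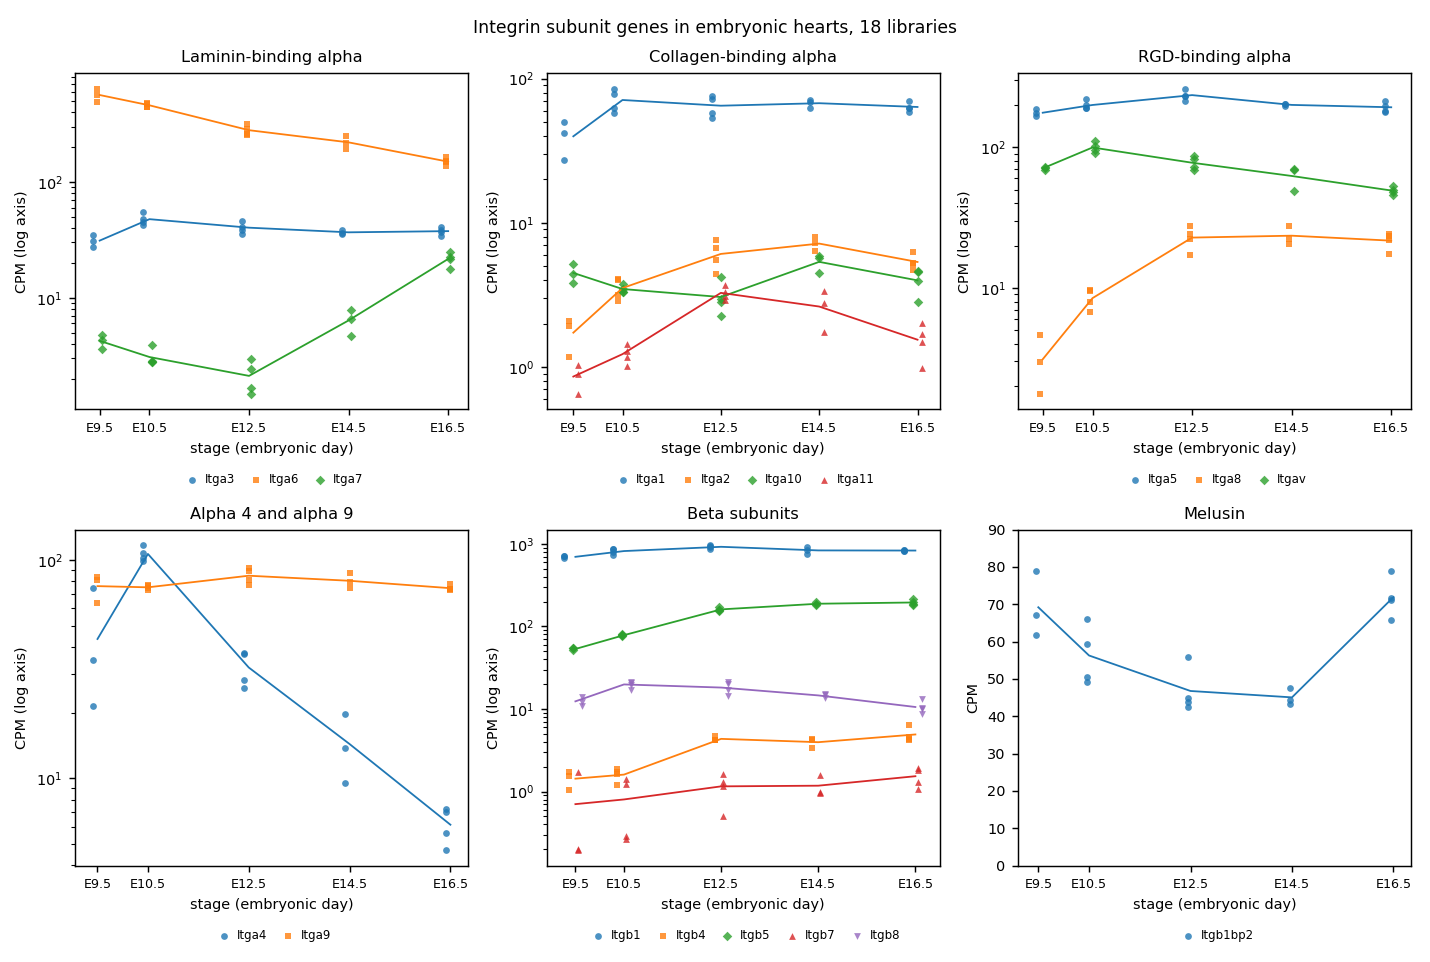
CPM of the integrin genes and of Itgb1bp2 (melusin) against embryonic day, 1 point per library with lines through the stage means; axes are logarithmic except for melusin. Itgb6 is not drawn. Itga6 and Itga4 fall to their lowest values at E16.5 while Itga7 rises from E12.5 on, Itgb5 rises up to E14.5 and Itga8 up to E12.5.

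Of the 4 collagen-binding subunits, Itga1 and Itga2 rose in the first step and Itga2 and Itga11 in the second. Itga2 (ENSMUSG00000015533, chr13:114833081-114932100) encodes a receptor for fibrillar collagens on platelets, epithelia and fibroblasts. Itga2 measured 1.18, 1.91 and 2.09 CPM in the E9.5 libraries and 3.98, 4.09, 2.89 and 3.15 CPM at E10.5. By E12.5 Itga2 was at 4.41, 7.65, 5.52 and 6.73 CPM, by E14.5 at 8.01, 7.18 and 6.32 CPM and by E16.5 at 4.71, 5.30, 6.23 and 5.15 CPM. The E9.5 libraries were below all others and the E10.5 libraries below all E12.5 libraries. Its log2 fold change was 1.03 ± 0.22 (SE; edgeR adjusted p = 0.00215) and 0.78 ± 0.19 (SE; edgeR adjusted p = 0.00264) in the first 2 steps and 1.63 ± 0.22 (SE; edgeR adjusted p = 2.13e-06) over the span. Itga1, which prefers collagen IV, rose in the first step from a range of 27.4 to 50.2 CPM to a range of 57.4 to 85.3 CPM (0.84 ± 0.18 SE, edgeR adjusted p = 0.00323) and passed in no later step. Over the span Itga1 rose by 0.68 ± 0.18 (SE; edgeR adjusted p = 0.00324), and within set B, with its single E9.5 library, the value was 1.22. Exons of Gm49395 on the same strand overlap 3.68% of those of Itga1. Itga11, a collagen I receptor of fibroblasts, rose between E10.5 and E12.5 from a range of 1.01 to 1.44 CPM to a range of 2.91 to 3.72 CPM (1.41 ± 0.23 SE, edgeR adjusted p = 9.13e-05). It fell again in the last step (-0.77 ± 0.25 SE, edgeR adjusted p = 0.0349), which no longer passed at -0.73 without E14.5 replicate 1, -0.55 without E14.5 replicate 2, -0.75 without E16.5 replicate 2 and -0.60 without E16.5 replicate 4 (edgeR adjusted p from 0.0704 to 0.218), nor with no filter on low counts or with only the stages compared in the fit (-0.76 to -0.78, edgeR adjusted p from 0.0529 to 0.0600). Its span of 0.85 ± 0.27 (SE; edgeR adjusted p = 0.00971) no longer passed at 0.68 without E9.5 replicate 2 (edgeR adjusted p = 0.0586), nor within set B (0.59, edgeR adjusted p = 0.237). Itga10, a collagen receptor of cartilage, rose between E12.5 and E14.5 (0.81 ± 0.20 SE, edgeR adjusted p = 0.00800), but 33.5% of its exon bases overlap Gm42957 on the same strand, so its counts are uncertain. Beside the early rises, 4 of 6 fibroblast and mesenchymal markers rose in the first step and 5 of 6 in the second. Their sum went from a range of 266 to 348 CPM at E9.5 to a range of 735 to 897 CPM at E10.5 and 1871 to 2417 CPM at E12.5. It went on to 2960 to 3326 CPM at E14.5 and 3955 to 4866 CPM at E16.5, with none of the 6 at 0. In these last 2 steps 3 and then 4 of the 6 rose and 1 fell in each, while Itga2 passed in neither (0.24 ± 0.20 and -0.42 ± 0.20 SE). The part of the markers was not tested.

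Of the RGD-binding subunits, Itga8 (ENSMUSG00000026768, chr2:12106632-12301922), a receptor for nephronectin and fibronectin found on mesenchyme and smooth muscle, had the highest log2 fold change from E9.5 to E16.5 of the 31 tested members in the fit of all libraries, just above Lama3. Within set B the order was the other way, with 2.88 for Itga8 and 3.27 for Lama3. Itga8 measured 2.96, 4.61 and 1.76 CPM in the E9.5 libraries and 9.68, 9.55, 6.71 and 7.90 CPM at E10.5. At the later stages it was 24.0, 27.7, 17.3 and 22.2 CPM (E12.5), 27.7, 22.4 and 20.4 CPM (E14.5) and 21.8, 23.4, 24.1 and 17.4 CPM (E16.5). E9.5, E10.5 and E12.5 did not overlap, and the last 3 stages did. The log2 fold change was 1.44 ± 0.25 (SE; edgeR adjusted p = 6.25e-04), then 1.43 ± 0.21 (SE; edgeR adjusted p = 4.82e-05), and 2.80 ± 0.26 (SE; edgeR adjusted p = 4.52e-08) over the span. Within set A the first 2 steps were 1.61 (edgeR adjusted p = 0.103) and 1.21 (edgeR adjusted p = 0.176), and within set B 1.31 and 1.65. The fibroblast and mesenchymal sums given above were higher in each of these 2 steps and also in the last 2. In the last 2 steps Itga8 did not pass, at 0.046 ± 0.22 and -0.12 ± 0.22 (SE). The part of these markers was not tested. Exons of the antisense gene E030013I19Rik cover 5.05% of those of Itga8. Itga5, the main fibronectin receptor subunit, ranged over 166 to 186 CPM at E9.5 and 178 to 215 CPM at E16.5. It passed once, between E10.5 and E12.5 (0.23 ± 0.075 SE, edgeR adjusted p = 0.0190), and no longer at 0.21 without E10.5 replicate 3, 0.21 without E10.5 replicate 4 and 0.18 without E12.5 replicate 4 (edgeR adjusted p from 0.0550 to 0.0742). The first step of Itga5, at 0.18 ± 0.081 (SE; edgeR adjusted p = 0.133), passed with the set as a term (0.21, edgeR adjusted p = 0.0263) and within set A (0.24). Its step to E14.5 and its span each passed in 2 of 28 alternative fits. Itgav, the alpha v subunit of vitronectin receptors, rose from a range of 68.4 to 72.9 CPM to a range of 91.0 to 111 CPM (0.49 ± 0.11 SE, edgeR adjusted p = 0.00284), fell at E12.5 (-0.36 ± 0.099 SE, edgeR adjusted p = 0.00686) and ended at 46.1 to 53.0 CPM. Within set B neither step passed, at 0.45 (edgeR adjusted p = 0.126) and -0.32 (edgeR adjusted p = 0.0578), while both passed within set A. Over the span it fell by 0.52 ± 0.11 (SE; edgeR adjusted p = 2.66e-04) on the log2 scale, and its last step (-0.34 ± 0.11 SE, edgeR adjusted p = 0.0290) no longer passed at -0.27 without E14.5 replicate 1, -0.26 without E14.5 replicate 2, -0.32 without E16.5 replicate 1 and -0.33 without E16.5 replicate 4 (edgeR adjusted p from 0.0640 to 0.179). Exons of Gm13684 on the opposite strand overlap 5.90% of those of Itgav.

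Itga4 (ENSMUSG00000027009, chr2:79255426-79333123), which binds VCAM1 and fibronectin and is needed for the epicardium to attach to the heart, peaked at E10.5. Itga4 measured 34.8, 74.1 and 21.6 CPM in the E9.5 libraries and 108, 117, 99.1 and 102 CPM at E10.5. The E12.5 libraries gave 28.2, 37.1, 26.1 and 37.5 CPM, those of E14.5 19.8, 13.8 and 9.53 CPM and those of E16.5 5.60, 7.05, 7.22 and 4.69 CPM. The 4 E10.5 libraries were above all others. The E9.5 libraries were spread from 21.6 to 74.1 CPM, with the extremes both in set A. E12.5 overlapped E9.5, and E14.5 and E16.5 lay below all earlier libraries, E16.5 lowest. The log2 fold change was 1.29 ± 0.34 (SE; edgeR adjusted p = 0.0155) in the first step, -1.73 ± 0.31 (SE; edgeR adjusted p = 5.27e-04) in the second and -2.82 ± 0.35 (SE; edgeR adjusted p = 6.00e-06) over the span. The rise no longer passed at 1.16 without E9.5 replicate 1 and 0.97 without E9.5 replicate 3 (edgeR adjusted p from 0.0548 to 0.0571), nor with only the stages compared in the fit (1.29, edgeR adjusted p = 0.0764). Within set A the first 2 steps were 1.25 (edgeR adjusted p = 0.376) and -1.58 (edgeR adjusted p = 0.401), and within set B 1.54 and -1.73. The later falls were -1.16 ± 0.34 (SE; edgeR adjusted p = 0.0364) and -1.23 ± 0.36 (SE; edgeR adjusted p = 0.0265). The first of them no longer passed at -1.22 without E12.5 replicate 1, -1.08 without E12.5 replicate 2, -1.08 without E12.5 replicate 4, -1.13 without E14.5 replicate 2 and -0.94 without E14.5 replicate 3 (edgeR adjusted p from 0.0512 to 0.153), nor when scaled by library totals only, with no filter on low counts or with the set as a term (-1.08 to -1.16, edgeR adjusted p from 0.0519 to 0.0740). The second no longer passed at -0.93 without E14.5 replicate 1, -1.26 without E14.5 replicate 2, -1.19 without E16.5 replicate 1 and -1.12 without E16.5 replicate 4 (edgeR adjusted p from 0.0625 to 0.152), nor with no filter on low counts (-1.22, edgeR adjusted p = 0.0570).

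Of 6 epicardial markers, 5 rose and 1 fell in the first step, and their sum went from a range of 143 to 191 CPM at E9.5 to a range of 391 to 470.1 CPM at E10.5, 361 to 475 CPM at E12.5, 289 to 293 CPM at E14.5 and 247 to 347 CPM at E16.5, with none at 0. In the second step, when Itga4 fell, the ranges of the sum overlapped and 2 of the 6 markers rose and 2 fell. The part of these markers in the course of Itga4 was not tested. Exons of Cerkl on the opposite strand overlap 8.04% of those of Itga4. The related Itga9, a receptor for tenascin C and other ligands, ranged over 63.4 to 83.8 CPM at E9.5 and 73.0 to 77.3 CPM at E16.5 (-0.031 ± 0.087 SE, edgeR adjusted p = 0.770). Itga9 passed in none of the 5 comparisons, and between E10.5 and E12.5 its value of 0.18 ± 0.080 (edgeR adjusted p = 0.0907) passed at 0.17 without E9.5 replicate 1 (edgeR adjusted p = 0.0333) and also with a filter at 10 CPM, with only the stages compared in the fit, with the set as a term and within set A. Per kilobase, Itga4 held 2.45% of the integrin alpha transcripts at E9.5, 5.73% at E10.5 and 0.500% at E16.5. The sum of all alpha subunits went from 127 ± 12.7 (SD, n = 3) CPM per kilobase at E9.5 to 133 ± 7.89 (SD, n = 4) at E10.5 and 87.7 ± 3.94 (SD, n = 4) at E16.5.

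Beta subunits set which alpha subunits can reach the surface. Itgb1 (ENSMUSG00000025809, chr8:128685654-128733200), the partner of most alpha subunits described here, had the highest level per kilobase of the 32 genes at E9.5 (170.5 ± 4.67 CPM per kilobase, SD, n = 3) and at E16.5 (203 ± 3.28, SD, n = 4). Itgb1 measured 709, 674 and 704 CPM in the E9.5 libraries and 862, 873, 741 and 792 CPM at E10.5. Later libraries held 929, 921, 857 and 972 CPM at E12.5, 903, 848 and 744 CPM at E14.5 and 810.2, 834, 842 and 828 CPM at E16.5. The E9.5 libraries lay below all others, and of the later stages only E12.5 and E16.5 did not overlap, E12.5 being higher. It rose by 0.23 ± 0.075 (SE; edgeR adjusted p = 0.0370) in the first step and by 0.25 ± 0.075 (SE; edgeR adjusted p = 0.00625) over the span. The first step no longer passed at 0.21 without E9.5 replicate 2, 0.24 without E9.5 replicate 3, 0.20 without E10.5 replicate 1 and 0.20 without E10.5 replicate 2 (edgeR adjusted p from 0.0855 to 0.122), nor with no filter on low counts or with only the stages compared in the fit (0.23 to 0.25, edgeR adjusted p from 0.0647 to 0.0659), and it was 0.36 within set A and 0.12 (edgeR adjusted p = 0.626) within set B. Over the span the set B value was 0.23 (edgeR adjusted p = 0.0845). Between E10.5 and E12.5 the change was 0.17 ± 0.069 (SE; edgeR adjusted p = 0.0572), and it passed at 0.20 without E10.5 replicate 2, 0.20 without E12.5 replicate 3, 0.17 without E14.5 replicate 1 and 0.17 without E14.5 replicate 3 (edgeR adjusted p from 0.0375 to 0.0489) and also with RLE factors, with a filter at 10 CPM, by DESeq2, with only the stages compared in the fit, with the set as a term and without mitochondrial and globin genes.

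Itgb5 (ENSMUSG00000022817, chr16:33829665-33949338), which pairs with alpha v to bind vitronectin, rose in the first 3 steps with a narrow spread. Itgb5 measured 54.1, 54.1 and 51.6 CPM in the E9.5 libraries and 80.5, 78.7, 77.8 and 76.4 CPM at E10.5. By E12.5 Itgb5 was at 170.4, 158, 155 and 159 CPM, by E14.5 at 196, 182 and 186 CPM and by E16.5 at 197, 183, 186 and 214 CPM. The groups of the first 4 stages did not overlap, and E16.5 overlapped E14.5. Its log2 fold change was 0.56 ± 0.065 (SE; edgeR adjusted p = 5.79e-06), 1.04 ± 0.059 (SE; edgeR adjusted p = 1.65e-10) and 0.23 ± 0.063 (SE; edgeR adjusted p = 0.0185) in those steps and 1.87 ± 0.068 (SE; edgeR adjusted p = 1.92e-14) over the span, from 53.3 ± 1.42 CPM (SD, n = 3) to 195 ± 13.9 CPM (SD, n = 4). The step to E14.5 no longer passed at 0.21 without E12.5 replicate 3 and 0.20 without E14.5 replicate 1 (edgeR adjusted p from 0.0511 to 0.0725), nor with no filter on low counts (0.23, edgeR adjusted p = 0.0651). Within set A and set B the first step was 0.61 and 0.52, and the second 1.0 and 1.06. The alpha partner Itgav fell over the same span. Per kilobase, Itgb5 went from 8.02% ± 0.333 (SD, n = 3) to 21.1% ± 1.31 (SD, n = 4) of integrin beta transcripts, and Itgb1 from 91.1% ± 0.432 to 78.0% ± 1.26 over the same libraries.

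**Figure D4:**
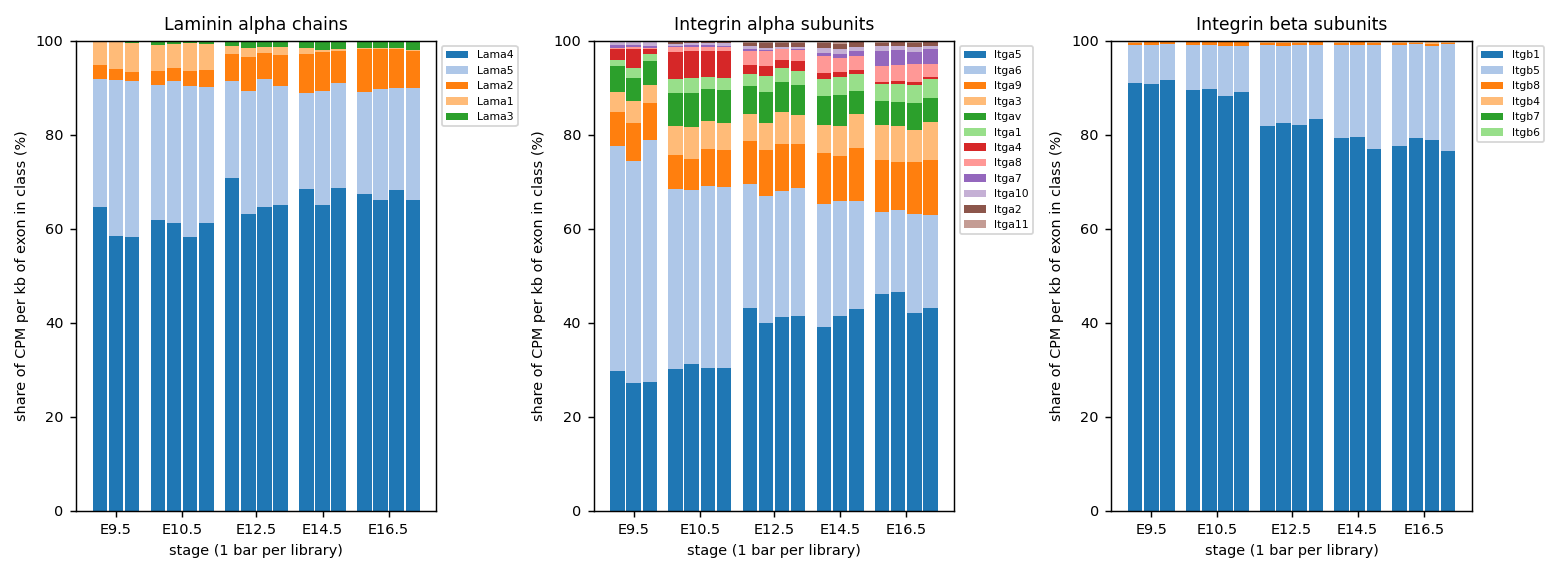
Share of each gene in the summed CPM per kilobase of exon of its subunit class, 1 bar per library. Itga6 narrows from a mean of 48.8% at E9.5 to 18.9% at E16.5 of the integrin alpha sum and Itgb5 widens from 8.02% to 21.1% of the beta sum, while Lama4 keeps the greater part of the laminin alpha sum at every stage.

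The other beta subunits had lower levels per kilobase than Itgb1 and Itgb5. Itgb4, the partner of alpha 6 in hemidesmosomes, rose between E10.5 and E12.5 from a range of 1.21 to 1.85 CPM to a range of 4.22 to 4.70 CPM (1.43 ± 0.18 SE, edgeR adjusted p = 5.18e-06). The opposite-strand gene B230344G16Rik overlaps 7.66% of its exon bases. Itgb8, which with alpha v releases active TGF-beta, rose in the first step from a range of 10.9 to 14 CPM to a range of 17.2 to 21.5 CPM (0.68 ± 0.14 SE, edgeR adjusted p = 0.00200) and fell in the last (-0.47 ± 0.14 SE, edgeR adjusted p = 0.0247). The first step did not pass within set B, at 0.60 (edgeR adjusted p = 0.132). The last call was lost without any 1 of E14.5 replicate 1 or 2, E16.5 replicate 1, 2 or 4 (-0.38 to -0.46, edgeR adjusted p from 0.0558 to 0.0994). Over the span Itgb8 had -0.23 ± 0.14 (SE; edgeR adjusted p = 0.167), and it passed at -0.35 without E16.5 replicate 3 (edgeR adjusted p = 0.0318). Itgb6 had between 0 and 12 counts in a library, at most 0.370 CPM, and was listed at 0 in E9.5 replicate 2 and E10.5 replicate 3.

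Itgb7, the leukocyte partner of alpha 4, followed the library sets. It stood at 0.195 to 0.502 CPM in the 5 set A libraries and at 0.965 to 1.94 CPM in the 13 set B libraries, with no overlap. With the set as a term in the model its difference, set B minus set A, was 2.21 (edgeR adjusted p = 4.81e-06) on the log2 scale. From E9.5 to E16.5 it had 1.10 ± 0.71 (SE; edgeR adjusted p = 0.183). It passed at 2.95 without E9.5 replicate 1 (edgeR adjusted p = 0.00215), the replicate that is the set B library of that stage. Within set B the span was -0.16 (edgeR adjusted p = 0.743). The part of the macrophage-type transcripts in this difference was not tested. With the same term, 12 of the 31 members differed between the sets (38.7%, next to 21.8% of all genes tested). Itgb7 and Itgb1bp2 were higher in set B, and Lama4, Lama5, Lamb1, Lamc1, Nid1, Nid2, Itga3, Itga6, Itga1 and Itga5 were lower. For Lama5 the difference was -0.44 (edgeR adjusted p = 0.0322), and for Nid2 -0.42 (edgeR adjusted p = 2.10e-04).

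**Figure D5:**
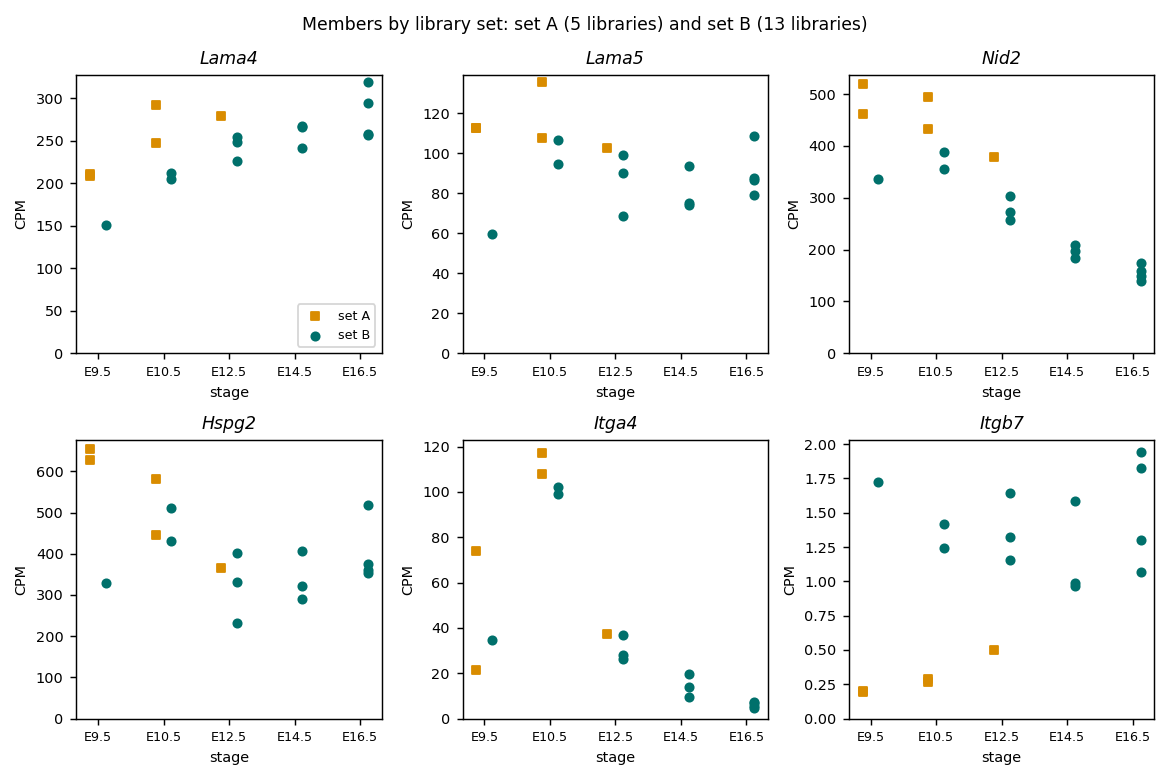
CPM of members in each library by embryonic day, with set A (5 libraries) and set B (13 libraries) in separate markers. Itgb7 separates the sets at E9.5, E10.5 and E12.5, and the E9.5 set B library is the lowest of its stage for Lama5.

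Itgb1bp2 (ENSMUSG00000031312, chrX:101449088-101453541) encodes melusin, a striated muscle chaperone that senses load through integrin beta 1. Itgb1bp2 measured 78.9, 61.6 and 67.0 CPM in the E9.5 libraries and 49.1, 50.6, 59.2 and 66.2 CPM at E10.5. At the later stages it was 55.9, 44.8, 43.7 and 42.6 CPM (E12.5), 43.2, 47.6 and 44.3 CPM (E14.5) and 78.9, 71.1, 71.8 and 65.9 CPM (E16.5). E16.5 lay above all E14.5 libraries and overlapped E9.5. It rose by 0.67 ± 0.11 (SE; edgeR adjusted p = 3.55e-04) in the last step, the step in which Itga7 rose and 4 of 6 cardiomyocyte markers rose, and its span was 0.055 ± 0.11 (SE; edgeR adjusted p = 0.682). In the first step it had -0.30 ± 0.11 (SE; edgeR adjusted p = 0.0704), and it passed at -0.37 without E9.5 replicate 2, -0.39 without E10.5 replicate 4 and -0.30 without E12.5 replicate 1 (edgeR adjusted p from 0.0223 to 0.0473) and also by DESeq2, with the set as a term and within set A. The change of -0.27 ± 0.10 (SE; edgeR adjusted p = 0.0495) between E10.5 and E12.5 was lost without any 1 of E9.5 replicate 3, E10.5 replicate 3 or 4, E12.5 replicate 2, 3 or 4, E14.5 replicate 1, 2 or 3, E16.5 replicate 2 or 3 (-0.18 to -0.27, edgeR adjusted p from 0.0532 to 0.186) and with RLE factors, with no filter on low counts, with a filter at 10 CPM, with only the stages compared in the fit or without mitochondrial and globin genes (-0.24 to -0.26, edgeR adjusted p from 0.0554 to 0.107).

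Genes around the integrins moved as follows between E9.5 and E16.5, where 64.9% of all genes passed and the median over all genes was -0.01. Of 30 genes of the cytoplasmic adhesion machinery, 29 were tested, 16 rose and 4 fell, with a median log2 fold change of 0.35. Tns1, a tensin that links integrin tails to actin, rose from 113 ± 18.6 to 609 ± 27.3 CPM (SD, n = 3 and n = 4, as for the genes that follow). Lims2, the second PINCH adaptor of the integrin-linked kinase complex, rose from 3.34 ± 0.417 to 16.2 ± 0.970 CPM, and Tns3, another tensin, from 34.1 ± 3.92 to 128 ± 8.43 CPM. Actn1, a non-muscle alpha-actinin, fell from 372 ± 58.4 to 152 ± 11.4 CPM, Ptk2, focal adhesion kinase, from 94.5 ± 8.91 to 70.5 ± 2.64 CPM and Flna, an actin crosslinker, from 676 ± 176 to 521 ± 68.1 CPM, the last with overlapping libraries. Of 27 other basement membrane proteins and integrin ligands, 14 rose and 9 fell, with a median of 0.50. Col15a1, a basement membrane collagen, rose from 0.364 ± 0.0913 to 79.0 ± 12.2 CPM, as did Postn, a matricellular ligand of alpha v integrins, from 12.4 ± 6.68 to 725 ± 117 CPM. Ntn4, a laminin-related netrin, rose from 0.992 ± 0.586 to 58.5 ± 4.64 CPM. Fn1, the fibronectin bound by Itga5, Itga8 and Itga4, fell from 1531 ± 467 to 548 ± 59.1 CPM. Tnc, the tenascin bound by Itga9, fell from 122 ± 35.6 to 51.9 ± 8.72 CPM and Frem1, a basement membrane protein, from 41.5 ± 7.75 to 13.8 ± 2.81 CPM. Of 14 matrix receptors other than integrins, 11 rose and 2 fell, with a median of 0.94. Bcam, a laminin alpha 5 receptor of the immunoglobulin family, rose from 153 ± 13.0 to 625 ± 57.3 CPM. Ddr2, a fibrillar collagen receptor kinase, rose from 2.25 ± 0.665 to 20.5 ± 3.01 CPM and Gpc1, a glypican, from 62.0 ± 3.58 to 261 ± 24.9 CPM. Cd44, the hyaluronan receptor, fell from 55.9 ± 6.40 to 33.0 ± 1.05 CPM and Gpc3, another glypican, from 438 ± 17.7 to 338 ± 23.6 CPM. The named genes had the largest rises and falls of each list, and each had an edgeR adjusted p of at most 0.0307. In the first step these lists had 7 rises and 3 falls, 10 and 2, and 8 and 1, in the order given, next to 10.6% of all genes higher and 7.62% lower.

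Other cell types that hearts hold, or that dissection could carry over, were followed by 6 markers each. Mural markers summed to 107 to 164 CPM at E9.5 and 312 to 357 CPM at E16.5, endothelial and endocardial markers to 656 to 757 CPM and 845 to 873 CPM, and macrophage markers to 10.4 to 62.3 CPM and 84.4 to 117 CPM. Erythroid markers were highest at E12.5, at 13423 to 40788 CPM, and 4 of 6 fell at E14.5. Lung and airway epithelial markers summed to 1.10 to 5.77 CPM at E9.5 and 1.63 to 13.5 CPM at E16.5, with Sftpc at 0 in every library of E9.5 and of E12.5, and 1 of the 4 that could be tested fell from E9.5 to E16.5. Liver and endoderm markers summed to 7.64 to 63.2 CPM at E9.5, 4.21 to 8.57 CPM at E10.5 and 21.9 to 23.8 CPM at E16.5, with none at 0 throughout a stage, and 2 of the 3 that could be tested fell in the first step. Megakaryocyte and platelet markers summed to 21.2 to 29.1 CPM at E9.5, 57.0 to 129 CPM at E12.5 and 16.8 to 25.1 CPM at E16.5. Of these 6, 4 rose in each of the first 2 steps and 5 fell at E14.5. The part of these cell types in the values of the 32 genes was not tested.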

How the data were processed

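RNA of 18 libraries of wild-type C57BL/6 embryonic hearts was sequenced at 5 stages. The authors deposited whole-number counts per Ensembl gene identifier, not normalized, and tools named in the submitters' processing notes are STAR 2.5.2b, Trimmomatic 0.36, Subread 1.5.2 and featureCounts, with the builds GRCm38 and mm10. Neither strandedness of the counting nor the annotation release is given in those notes or the labels. Library totals ran from 30744015 to 45646538 counts. No 2 libraries of a stage agreed within sampling noise: over 24 pairs, chi-square was 6.06 to 79.8 times its degrees of freedom (genes with 10 or more counts in the pair). At E9.5 the pair within set A gave 7.03, and pairs across the sets 37.4 and 45.1. At E10.5 the pairs within a set gave 7.53 and 6.06, and those across the sets 24.5 to 30.2. At E12.5 the ranges overlapped, at 21.0 to 32.1 within set B and 28.7 to 79.8 across the sets. The p-values of the first step take libraries of a stage as independent, which this grouping by set does not bear out.

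Genes that passed filterByExpr by stage (18885) were tested with edgeR 4.0.16 (R 4.3.3): TMM scaling, 1 robust quasi-likelihood fit of all 18 libraries with stage as the only term, Benjamini-Hochberg adjustment over all genes tested and a threshold of 0.05. Standard errors were the absolute log2 fold change divided by the square root of F. Exon lengths and coordinates came from GENCODE M21 on GRCm38, and upstream sequence from RefSeq on GRCm38.p6. The exon length of a gene was the union of all its annotated exons, so it can exceed the length of a single transcript. Opposite-strand genes also overlap 0.111 to 3.86% of the exon bases of Lama2, Lama3, Nid1 and Itga7. Alternatives were DESeq2 1.42.0, RLE factors, library totals without TMM, no filter on low counts, at least 10 CPM in 3 libraries, only the stages compared, a replicate block, library set as a term, set A or set B only, no mitochondrial and globin genes, and each library left out. The fit was tested on simulated data first.

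The members and lists were chosen with earlier results of these data known. The result of 1 marker list is not reported here. Values of every library are given for members that passed in a comparison with a log2 fold change of at least 1 and a stage mean of at least 5 CPM, and for Itgb1, Lamb1, Lamc1, Nid1, Nid2, Hspg2 and Itgb1bp2. From each pathway list the 3 largest rises and falls at E16.5 against E9.5 with a mean of at least 10 CPM are named.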

Additional observations from a re-analysis of the deposited data

Results flagged for a closer look

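In stages with 4 libraries, 96 groups of values of the 32 genes were checked for a library whose gap to the nearest other exceeded Dixon's 95% limit as a share of the range. The check marked 5 groups, and chance marks about 1 in 20. Hspg2 stood at 517 CPM in E16.5 replicate 2, against 352 to 375 CPM in the other E16.5 libraries. Itga7 stood at 3.92 CPM in E10.5 replicate 3, against 2.76 to 2.86 CPM. Itga9 was 77.3 CPM in E16.5 replicate 4, against 73.0 to 73.5 CPM, and Itgb4 was 4.70 CPM in E12.5 replicate 2, against 4.22 to 4.25 CPM. Itgb1bp2 was 55.9 CPM in E12.5 replicate 1, against 42.6 to 44.8 CPM. For Hspg2 and Itga7 the results that rest on those libraries are given without them beside the results above.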

How the results depend on the processing

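Of 155 member results (31 genes in 5 comparisons), 73 passed, 44 of these passed in every alternative that gave a value, 52 passed whichever single library was left out, and none of the 73 had another sign in any alternative run. Of results that did not pass, Lama5 over the whole span changed sign and then passed, at 0.60 within set B against -0.071 in all libraries. Others changed sign without passing, among them Hspg2 over the span (0.29 within set B against -0.42) and in the first step (0.53 against -0.12), and Itgb7 over the span (-0.16 against 1.10). With 1 library left out, the number of members that passed was 11 to 17 for E10.5 against E9.5, 13 to 18 for E12.5 against E10.5, 6 to 9 for E14.5 against E12.5, 4 to 10 for E16.5 against E14.5 and 22 to 24 for E16.5 against E9.5. The 4 and a value of 5 came without E14.5 replicate 1 and without E14.5 replicate 2, next to 9 in all libraries. The test over all stages gave 26 to 30. Under the other alternatives the counts were 11 to 19, 12 to 19, 7 to 11, 8 to 12 and 19 to 24 in that order. Over all genes, E10.5 against E9.5 gave 3446 calls, 6460 in set A alone, 1215 in set B alone and 2260 without E9.5 replicate 3. E14.5 against E12.5 gave 2803, and 1771 without E14.5 replicate 3. E16.5 against E14.5 gave 3562, and 2058 and 2225 without E14.5 replicates 1 and 2. Scaling by library totals only moved the median of all genes by -0.13 for E16.5 against E14.5, where the share of calls that were higher went from 53.6% to 24.4%, and by 0.074 for E14.5 against E12.5, from 42.3% to 62.5%. The cause was not tested.

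Replicate numbers gave no sign of pairing the libraries: over 33 same-numbered pairs the mean correlation of deviations was -0.053. Of these, 8 were above 0.1, and the mean was 0.016 over 96 other pairs. Single same-numbered pairs ran from -0.64 to 0.50, and libraries of the same number lie in both sets. The mean therefore cannot exclude a pairing. With the replicate block, 15, 15, 8, 9 and 24 members passed in the 4 steps and the span, next to 16, 16, 9, 9 and 23 without it. Set A alone gave values for the first 2 steps, with a single library at E12.5, and set B alone rests on a single E9.5 library. Both single libraries were assumed to vary like the other stages. Depth limits members near 1 CPM, such as Itgb6, Itgb7 and Lamc3.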
